A study of Mus musculus with 14 samples.

Results

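The genes described here are 36 genes of the striatal projection neuron, the inhibitory output cell of the striatum. They were chosen by name for their known place in direct pathway cells, in indirect pathway cells, in dopamine and cyclic AMP signalling or among striatal transcription factors. All 36 were found among the 23337 gene symbols of the count tables. Of the 36, 6 were placed in the direct pathway (Drd1a, Tac1, Pdyn, Chrm4, Isl1 and Ebf1) and 8 in the indirect pathway (Drd2, Adora2a, Penk, Gpr6, Gpr52, Gprin3, Six3 and Ikzf1), and 22 were placed in neither. The placement is by name, and whether other cells of the tissue add to these counts was not tested. RNA was sequenced from microdissected, flash-frozen brain tissue of Thap1 conditional knockout (cKO) mice and of wildtype (WT) littermates. The striatum gave 3 cKO and 3 WT libraries and the cerebellum 4 cKO and 4 WT libraries. All mice were on the C57Bl/6 background and 6 months old, and no treatment is named. The sources used here do not give the promoter that drives the recombinase, the cells in which Thap1 is deleted, the deleted part of the gene or any allele the controls carry. They also do not tie each library to its own animal. The p-values therefore reflect spread among these libraries, part of which may be technical.

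Projection neurons receive cortical and dopaminergic input and inhibit the output nuclei of the basal ganglia. Direct pathway cells carry the D1 dopamine receptor, which raises cyclic AMP, and make the peptides substance P and dynorphin. Indirect pathway cells carry the D2 receptor, which lowers cyclic AMP, and an adenosine receptor, Adora2a, which raises it, and they make enkephalin. THAP1 binds DNA through a zinc finger, and its human gene is mutated in DYT6 dystonia, a movement disorder in which basal ganglia and cerebellar circuits have been studied. The comparison asks whether transcripts of these neurons differ in level between Thap1 cKO and WT mice, and whether the pathways differ from each other.

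The labels were checked first. Levels are CPM (each gene's share of its library's counts, as edgeR scales it), with TMM factors over all 14 libraries, and fold changes are log2 of cKO over WT from a fit within each tissue. Library totals ran from 12659013 to 14258141 counts in cKO striatum, from 12595941 to 13499875 in WT striatum, from 19860775 to 28099205 in cKO cerebellum and from 19458954 to 24331760 in WT cerebellum. Thap1 itself had 5.60, 8.15 and 4.02 CPM in cKO striatum, against 14, 15.4 and 16.4 CPM in WT striatum, with no overlap (log2 fold change -1.36 ± 0.231 SE; edgeR's quasi-likelihood test with Benjamini-Hochberg adjustment, adjusted p = 0.0562). Its exons overlap another gene, and the deleted part is unknown. In cerebellum it had 6.95, 7.07, 7.39 and 6.51 CPM in cKO libraries, against 9.85, 7.81, 10.05 and 7.95 CPM in WT libraries, again with no overlap (log2 fold change -0.34, SE 0.100, adjusted p = 0.0488 by the same test). That cerebellar call was lost in 6 of the 8 fits that each leave out 1 library and with DESeq2 (adjusted p = 0.0569). Summed CPM of 8 projection neuron markers was 7540 to 8707 in cKO striatum and 7020 to 9486 in WT striatum, against 242 to 272 in cKO cerebellum and 235 to 289 in WT cerebellum. The granule cell genes Gabra6 in both striatal groups and Fat2 in WT striatum, and the Purkinje cell gene Pcp2 in both striatal groups, had no count. Other genes of these lists were detected in striatum. The 7 granule cell markers summed to 74.4 to 87.6 CPM in cKO and 78.2 to 110.7 CPM in WT striatum. The 5 Purkinje cell markers summed to 2201 to 2475 CPM in cKO and 2593 to 2789 CPM in WT striatum.

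WT striatum replicate 1 and WT cerebellum replicate 2 stood apart, and values that change most without them are given both ways. WT striatum replicate 1 was the highest of the 6 striatal libraries for 10 members and the lowest for 8, against 31.5% and 34.5% of all genes tested in striatum. Its deviation from the gene means rose with exon length across 13933 genes (Spearman's rho 0.56, a description over genes of 1 library). The other 5 striatal libraries had values between -0.31 and -0.23. The gene means are over all 6 striatal libraries, so these 5 values are not independent of replicate 1. WT cerebellum replicate 2 was the highest of the 8 cerebellar libraries for 17 of the 36 members, against 15.6% of all genes tested in cerebellum. The 17 include Drd2, Drd3, Pdyn, Isl1, Six3 and Oprm1, which had too few counts for the cerebellar test, so the 2 sets differ.

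In WT striatum, levels per exon length differed widely among the members. Penk, the enkephalin precursor, stood at 1226 ± 475 CPM per kb of exon and Ppp1r1b, which encodes the dopamine-responsive phosphatase inhibitor DARPP-32, at 787 ± 224 (SD, n = 3). The spread of these 2 genes overlapped. Gng7, a G protein gamma subunit that couples dopamine and adenosine receptors to adenylyl cyclase, followed at 557 ± 56.4 CPM per kb. Pde1b and Rasd2, a calcium-dependent phosphodiesterase and a small GTPase also called Rhes, had 360 ± 21.9 and 356 ± 15.2 CPM per kb, which were not distinguishable from each other. Of the dopamine receptors, Drd1a had 133 ± 8.14 CPM per kb and Drd2 96.2 ± 4.73, while Drd3, the D3 receptor of the ventral striatum, had 1.51 ± 0.0991. Among the peptide genes the order was Penk, then Tac1 at 90.1 ± 26.8 CPM per kb, then Pdyn at 24.0 ± 7.25. Oprm1, the mu opioid receptor gene, was the lowest of the 35 members with a length, at 0.538 ± 0.108 CPM per kb. No length was found for Gpr52.

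In cKO striatum the same order held at both ends. Penk had 1191 ± 109 CPM per kb there, Ppp1r1b 818 ± 80.5 and Gng7 507 ± 13.5 (SD, n = 3), and these 3 were apart by more than their SDs. Oprm1 was again the lowest, at 0.558 ± 0.181 CPM per kb. Drd2, at 83.3 ± 9.25 CPM per kb, stood below Chrm4 and Tac1 there and above both in WT striatum, and Cnr1, at 60.1 ± 23.4, stood above Bcl11b in cKO striatum and below it in WT striatum. In cKO striatum Drd2 was within the spread of Chrm4, and Cnr1 within that of Bcl11b.

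**Figure D1:**
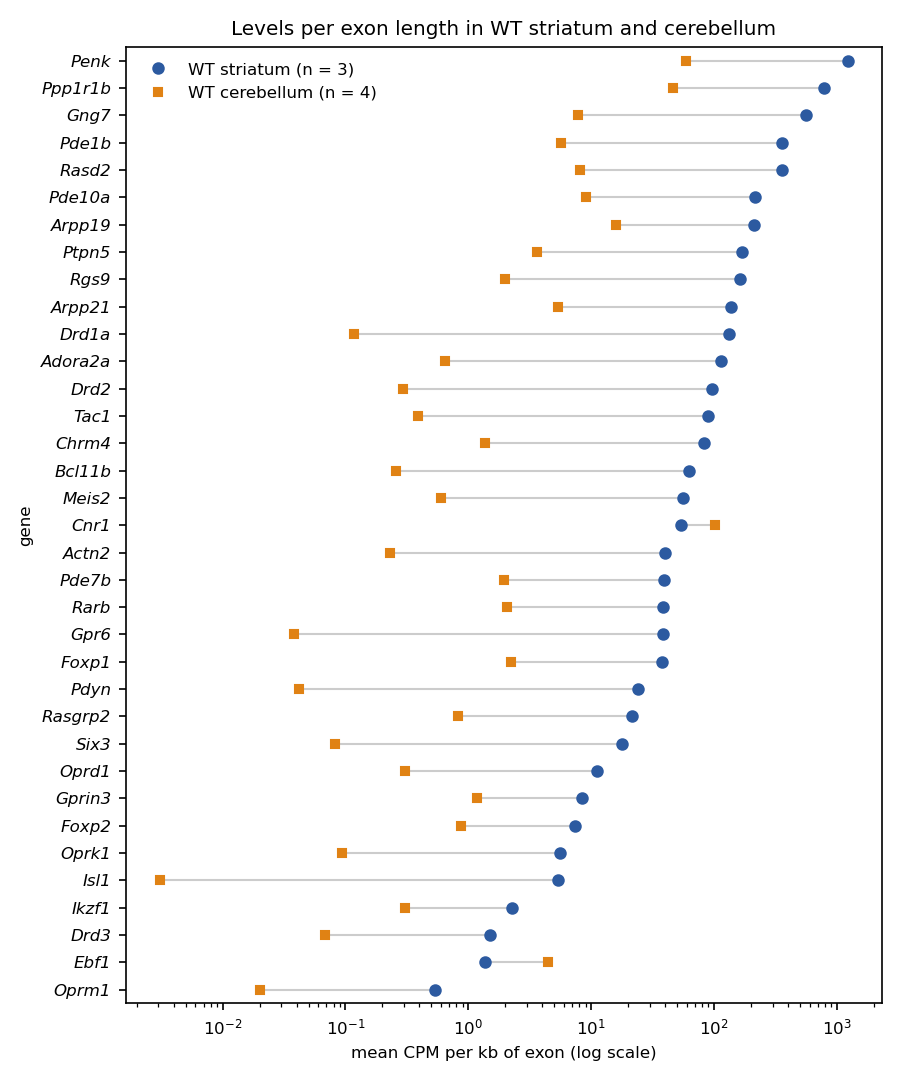
Mean CPM per kb of exon (log axis) of 35 members in WT striatum (circles, n = 3) and WT cerebellum (squares, n = 4), ordered by the striatal level and joined by a line for each gene. Ebf1 and Cnr1 are the members whose cerebellar square lies to the right of the striatal circle.

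Between the tissues of WT mice, 34 of the 36 members were higher in striatum than in cerebellum and 2 were lower (edgeR's quasi-likelihood test, adjusted p under 0.05), while of all 15401 genes tested 33.7% were higher, 35.4% lower and 69.1% either. The median log2 difference of the members was 5.51, against -0.03 for all genes. The members had been picked as striatal genes, so this checks their identity. Drd1a had 17339 counts over the WT striatal libraries and 38 over the WT cerebellar ones, a CPM ratio of 1135, and Gpr6, a constitutively active receptor that raises cyclic AMP, had 2490 and 6 counts, a ratio of 1032. Isl1, a LIM homeodomain factor of direct pathway cells, had 767 counts in WT striatum and 1 in WT cerebellum, a ratio of 1908 with a counting interval from 341 to 75460. Foxp2, Ikzf1 and Gprin3 had the smallest ratios above 1, 8.57, 7.53 and 7.16. The exceptions were Ebf1, a helix-loop-helix factor of direct pathway neurons, at a log2 difference of -1.69, and Cnr1, the CB1 cannabinoid receptor gene, at -0.92. Penk and Ppp1r1b kept 59.1 ± 3.62 and 46.1 ± 5.84 CPM per kb in WT cerebellum (SD, n = 4), where Cnr1 led the members with 101 ± 7.45.

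In striatum, no member passed the genotype test: 0 of 36 were called at an adjusted p under 0.05 and 0 had an unadjusted p under 0.05 with edgeR's quasi-likelihood test, and both counts were also 0 with DESeq2. Of all 14080 genes tested, 0.384% were called (0.0639% higher and 0.320% lower in cKO) and 7.24% had an unadjusted p under 0.05. Without WT striatum replicate 1, 2 members had an unadjusted p under 0.05 with edgeR. With each library's exon length trend removed there were also 2. The share of all genes at that threshold was not counted in these 2 fits. The members' log2 fold changes lay between -0.23 and 0.30 with a median of -0.04 (13 positive, 23 negative), against a median of 0.00 for all genes. The 95% intervals of 30 of the 36 members lay within a 1.5-fold change in either direction, and those of Penk, Pdyn, Drd3, Oprm1, Oprd1 and Cnr1 reached beyond it. In bulk tissue, fewer cells of a type and less RNA per cell cannot be told apart. CPM did not overlap between genotypes for 3 members, Drd2, Rgs9 and Six3, all lower in cKO, where 7.97% of all genes tested showed this; no member was higher without overlap, against 7.05% of all genes.

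**Figure D2:**
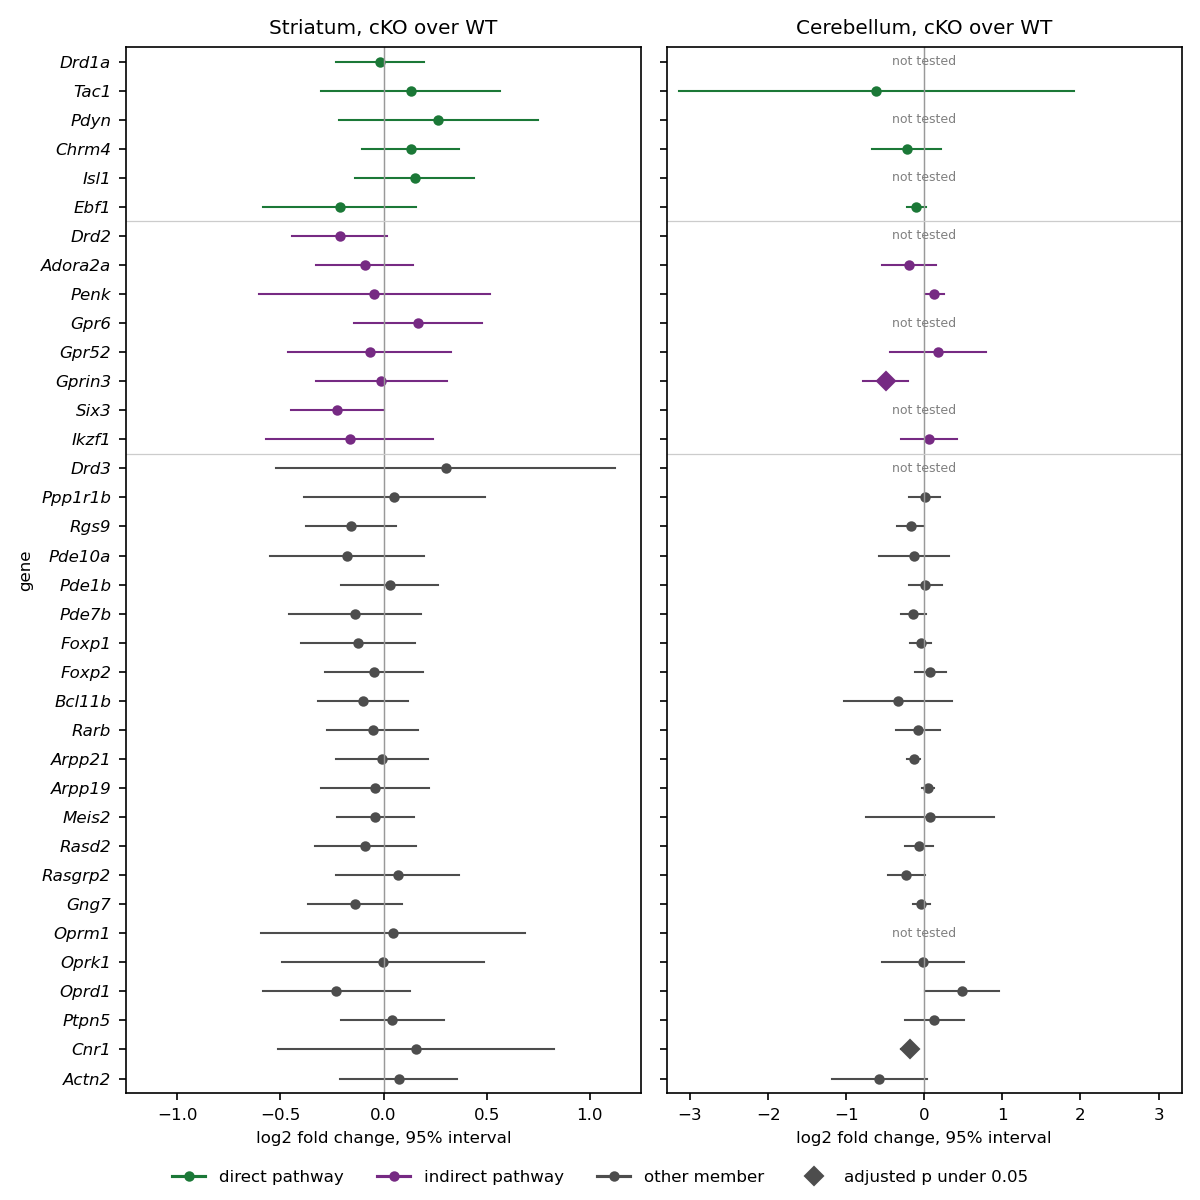
Log2 fold change of cKO over WT (points) with 95% intervals (lines) for the 36 members in striatum (left, n = 3 a genotype) and cerebellum (right, n = 4 a genotype, wider axis), grouped as direct pathway, indirect pathway and other members. No striatal member reached an adjusted p under 0.05; in cerebellum the diamonds mark Gprin3 and Cnr1, both lower in cKO.

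Among the direct pathway members, Drd1a, the D1 receptor gene (chr13:54051183-54055705 on GRCm38, minus strand), had 439, 499 and 497 CPM in cKO striatum, against 516, 468 and 463 CPM in WT striatum. The genotypes overlapped, and the log2 fold change of -0.02 had a 95% interval from -0.23 to 0.20 (edgeR, adjusted p = 0.968). Tac1, the substance P precursor gene (chr6:7554879-7565834, plus strand), had 333, 325 and 350 CPM in cKO striatum, against 204, 338 and 377 CPM in WT striatum. The cKO libraries lay close together and inside the WT range (log2 fold change 0.13, interval -0.30 to 0.56), and without WT striatum replicate 1, the lowest, the value was -0.09. Pdyn, the dynorphin precursor gene, had 96.9, 67.4 and 86.6 CPM in cKO striatum, against 47.9, 70.5 and 89.8 CPM in WT striatum. Its genotypes overlapped too, with a log2 fold change of 0.27 (interval -0.22 to 0.75) that was 0.07 without WT striatum replicate 1. Of the other members, Chrm4, the M4 muscarinic receptor gene, averaged 132 ± 13.7 CPM in cKO striatum and 120 ± 9.26 CPM in WT striatum. Isl1 averaged 23.7 ± 2.39 CPM in cKO and 21.3 ± 2.06 CPM in WT striatum, and Ebf1 11.6 ± 1.498 CPM in cKO and 13.5 ± 1.98 CPM in WT striatum (SD, n = 3 each). Their log2 fold changes were 0.13, 0.15 and -0.21, with intervals that include 0.

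Among the indirect pathway members, Drd2, the D2 receptor gene (chr9:49340627-49408177, plus strand), had 185, 222 and 229.6 CPM in cKO striatum, against 255, 249 and 231.6 CPM in WT striatum. Every cKO library was below every WT library, the nearest pair being both replicates 3, and the log2 fold change of -0.21 (SE 0.102, interval -0.44 to 0.02) did not pass (edgeR, adjusted p = 0.725). Six3, a homeobox factor that indirect pathway neurons need for their development (chr17:85613608-85629302, plus strand), had 88.8, 74.0 and 87.5 CPM in cKO striatum, against 100.4, 90.4 and 101 CPM in WT striatum. The groups did not overlap, with the smallest p of the 36 members (log2 fold change -0.22, interval -0.45 to 0.00), but it did not pass (edgeR, adjusted p = 0.694). Its exons overlap those of Six3os1 and Gm28528, and the counting's strand setting is unknown, so its counts are uncertain.

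The other indirect pathway members overlapped between genotypes. Adora2a, the adenosine receptor gene of these cells, had 294, 344 and 349 CPM in cKO striatum, against 322, 385 and 343 CPM in WT striatum (log2 fold change -0.09, interval -0.33 to 0.14). Penk had 1878, 1813 and 2149 CPM in cKO striatum, against 1181, 2107 and 2724 CPM in WT striatum. All cKO values of Penk lay inside the WT range. Its log2 fold change was -0.04 (interval -0.60 to 0.52), and -0.31 (SE 0.117, adjusted p = 0.462) without WT striatum replicate 1, its lowest library. Gpr6 averaged 77.6 ± 13.7 CPM in cKO and 68.9 ± 7.35 CPM in WT striatum, Gpr52, another receptor that raises cyclic AMP, 87.4 ± 17.1 CPM in cKO and 91.2 ± 18.5 CPM in WT striatum, and Ikzf1, a zinc-finger factor also called Ikaros, 11.8 ± 2.04 CPM in cKO and 13.2 ± 2.02 CPM in WT striatum (SD, n = 3 each). Gprin3, a G protein-regulated inducer of neurite outgrowth, had 57.9, 75.7 and 75.3 CPM in cKO striatum, against 81.2, 66.8 and 61.9 CPM in WT striatum. It overlapped, with a log2 fold change of -0.01 (interval -0.33 to 0.31).

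**Figure D3:**
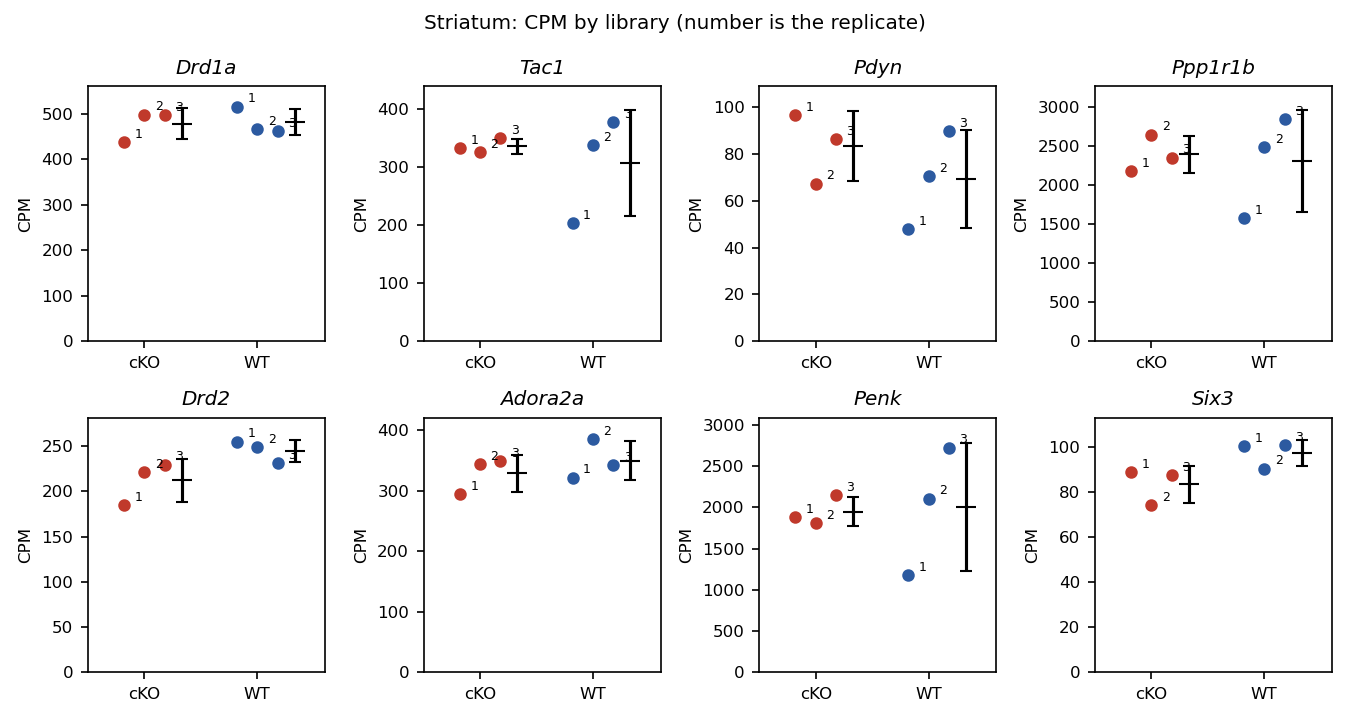
CPM of 4 direct pathway or shared genes (top: Drd1a, Tac1, Pdyn, Ppp1r1b) and 4 indirect pathway genes (bottom: Drd2, Adora2a, Penk, Six3) in each striatal library, cKO left and WT right, with replicate numbers, means and SDs (bars, n = 3). WT replicate 1 is the lowest library for Tac1, Pdyn, Ppp1r1b and Penk, and the cKO and WT points do not overlap for Drd2 and Six3.

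Cyclic AMP acts on many genes through CREB, which binds TGACGTCA and its short form TGACG, so these letters were searched in the members' promoters. RefSeq's promoter table (build GRCm38.p6) held 30 of the 36 members. In the 250 bases before the listed start, on either strand, TGACGTCA was found in 1 of 30 (3.33%, Gpr6), against 1.62% of 27025 promoters, and TGACG in 3 of 30 (10%, Tac1, Gpr6 and Isl1), against 17.9%. Every TGACGTCA also counts as TGACG. The promoters of Gpr6 (chr10:41072291-41072540, minus strand) and Tac1 (chr6:7554811-7555060, plus strand) are shown as an indirect and a direct pathway gene with these letters in capitals, where CGTCA is TGACG read on the other strand.
Gpr6: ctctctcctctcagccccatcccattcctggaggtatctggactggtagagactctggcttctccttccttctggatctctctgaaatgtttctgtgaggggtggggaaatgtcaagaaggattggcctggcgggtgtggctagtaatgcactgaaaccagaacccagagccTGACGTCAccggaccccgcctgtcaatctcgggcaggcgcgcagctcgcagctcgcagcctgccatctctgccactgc
Tac1: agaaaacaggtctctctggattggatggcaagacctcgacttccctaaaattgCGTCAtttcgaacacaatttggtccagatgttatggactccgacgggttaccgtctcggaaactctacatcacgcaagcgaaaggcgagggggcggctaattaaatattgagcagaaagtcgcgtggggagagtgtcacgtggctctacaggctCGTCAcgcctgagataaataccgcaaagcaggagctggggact

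Averaged by pathway, the log2 fold changes in striatum had a median of 0.13 over the 6 direct pathway members (4 positive, 2 negative) and of -0.08 over the 8 indirect pathway members (1 positive, 7 negative), against -0.04 over the 22 other members and 0.00 over all genes. Without WT striatum replicate 1 the medians were 0.055 for the direct pathway members (4 positive, 2 negative) and -0.10 for the indirect pathway members (3 positive, 5 negative), with Drd1a and Tac1, and Gpr52 and Gprin3, of the opposite sign. With each library's exon length trend removed they were 0.022 (3 positive, 3 negative) and -0.14 (2 positive, 6 negative). The mean log2 CPM of the direct pathway members minus that of the indirect pathway members was -0.42, -0.51 and -0.58 in cKO striatum, against -0.75, -0.68 and -0.56 in WT striatum. Replicates 3 of both genotypes overlapped. The means were -0.50 ± 0.08 in cKO and -0.66 ± 0.10 in WT striatum (SD, n = 3 each), a difference of 0.16 that was 0.12 without WT striatum replicate 1. This score covers chosen members and was given no p. Drd1a over Drd2 in CPM, a ratio singled out after its values were seen, was 2.37, 2.25 and 2.17 in cKO striatum, against 2.02, 1.88 and 2.00 in WT striatum. The cKO ratios were above all WT ratios, and neither gene passed its own test. In cerebellum the score of the same members was -0.86, -0.48, -0.87 and -0.50 in cKO libraries, against -0.87, -0.59, -1.21 and -0.88 in WT libraries, overlapping, with several members there near the limit of detection. The difference of the means was 0.21 in cerebellum, against the 0.16 in striatum. The cerebellar score includes members with too few counts for the test. Of those tested there, the 3 direct pathway members had a median log2 fold change of -0.23 (0 positive, 3 negative). Tac1 is among these 3, and its value was 1.22 without WT cerebellum replicate 2. The 5 indirect pathway members tested had a median of 0.06 (3 positive, 2 negative). With all libraries, the order of these 2 medians is the reverse of that in the score.

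**Figure D4:**
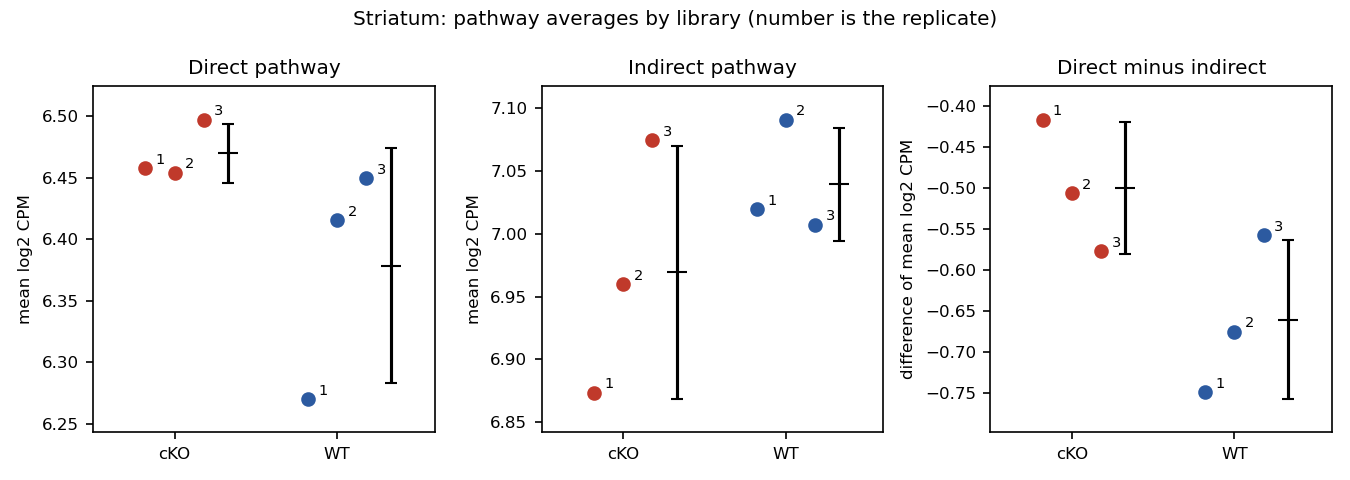
Mean log2 CPM of the 6 direct pathway members (left), of the 8 indirect pathway members (middle) and their difference (right) in each striatal library, cKO left and WT right, with replicate numbers, means and SDs (bars, n = 3). The difference averages -0.50 in cKO and -0.66 in WT, and replicates 3 overlap.

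Among the signalling genes shared by both pathways, none passed the striatal test. Ppp1r1b (chr11:98348404-98357796, plus strand) had 2182, 2648 and 2354 CPM in cKO striatum, against 1577, 2490 and 2848 CPM in WT striatum. The cKO libraries were inside the WT range, and the log2 fold change of 0.05 (interval -0.38 to 0.49) was -0.15 without WT striatum replicate 1. Rgs9, which speeds the shut-off of G proteins downstream of dopamine receptors (chr11:109225355-109298129, minus strand), had 863, 956 and 980 CPM in cKO striatum, against 1117, 986 and 1014 CPM in WT striatum. It was the third member without overlap (log2 fold change -0.16, SE 0.0965, interval -0.38 to 0.06; edgeR, adjusted p = 0.767). Pde10a, the phosphodiesterase that degrades cyclic nucleotides in these cells, had 2103, 2651 and 2688 CPM in cKO striatum, against 3518, 2439 and 2432 CPM in WT striatum. WT replicate 1 was its highest library, and the log2 fold change of -0.18 (interval -0.55 to 0.20) was 0.03 without it.

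The other signalling members overlapped between genotypes. Pde1b averaged 1986 ± 189 CPM in cKO and 1941 ± 118 CPM in WT striatum, Pde7b, a cyclic AMP phosphodiesterase, 444 ± 59.4 and Gng7 1918 ± 51.2 CPM in cKO, against 487 ± 81.5 and 2109 ± 213 CPM in WT striatum. Ptpn5, the striatal-enriched phosphatase STEP, averaged 1021 ± 99.0 CPM in cKO and 988 ± 102 CPM in WT striatum (SD, n = 3 each). Arpp21, a cyclic AMP-regulated phosphoprotein, had 2410, 2223 and 2485 CPM in cKO striatum, against 2188, 2569 and 2381 CPM in WT striatum. It overlapped (log2 fold change -0.01), as did Arpp19, a related phosphoprotein (-0.04). Rasd2 and Rasgrp2, an exchange factor for the GTPase Rap1, had -0.09 and 0.07. Actn2, a cytoskeletal actinin found at synapses, had 0.07. Cnr1 varied most among the well-expressed members, with 253, 550 and 359 CPM in cKO striatum, against 486, 281 and 273 CPM in WT striatum. Its groups overlapped fully (log2 fold change 0.16, SE 0.296), and the value ran from -0.18 without cKO striatum replicate 2 to 0.49 without WT striatum replicate 1.

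Bcl11b, Foxp1, Foxp2, Rarb and Meis2 overlapped between genotypes in striatum, as Isl1, Ebf1 and Ikzf1 did, while Six3 did not. Bcl11b, also called CTIP2 and needed for projection neuron differentiation, had 421, 495 and 501 CPM in cKO striatum, against 516, 483 and 517 CPM in WT striatum (log2 fold change -0.10, interval -0.32 to 0.12). Foxp1, a forkhead factor of both pathways, had 419, 487 and 527 CPM in cKO striatum, against 590, 500.5 and 467 CPM in WT striatum (-0.12, interval -0.40 to 0.15). Foxp2, a forkhead factor known for its part in vocal learning circuits, had 113, 108 and 129 CPM in cKO striatum, against 127, 126 and 108 CPM in WT striatum (-0.05, interval -0.28 to 0.19). In these 3 genes the lowest library of the tissue was cKO replicate 1 for Bcl11b and Foxp1 and cKO replicate 2 for Foxp2. Rarb, the retinoic acid receptor beta gene, had 183, 190 and 218 CPM in cKO striatum, against 217, 204 and 190 CPM in WT striatum (-0.05, interval -0.27 to 0.17). Meis2, a homeobox factor, had the smallest spread relative to its mean in cKO striatum, averaging 651 ± 15.4 CPM in cKO and 668 ± 23.7 CPM in WT striatum (SD, n = 3 each).

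The opioid receptors bind the peptides that projection neurons make. Oprd1, the delta receptor gene, had 33.7, 45.2 and 37.3 CPM in cKO striatum, against 54.3, 43.5 and 38.2 CPM in WT striatum. It overlapped, and its log2 fold change of -0.23 (interval -0.59 to 0.13) was -0.08 without WT striatum replicate 1. Oprk1, the kappa receptor gene, averaged 51.0 ± 11.9 CPM in cKO and 50.9 ± 13.7 CPM in WT striatum, Oprm1 4.48 ± 1.45 CPM in cKO and 4.32 ± 0.867 CPM in WT striatum, and Drd3 3.19 ± 1.51 CPM in cKO and 2.58 ± 0.170 CPM in WT striatum (SD, n = 3 each). The Oprk1 log2 fold change was 0.00 and its sign changed with the libraries left out.

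The wider lists around the members also held no striatal call. Of all genes tested in striatum, edgeR called 0.384% and DESeq2 1.09%, and 7.24% had an unadjusted p under 0.05 with edgeR. Of 34 partners in dopamine and cyclic AMP signalling, 31 were tested and 0 were called by edgeR or DESeq2 (1 at an unadjusted p under 0.05 with each tool), with a median log2 fold change of 0.02. Of 25 other projection neuron genes tested, 0 were called by either tool (3 at an unadjusted p under 0.05 with each), with a median of -0.06. Adcy5, the adenylyl cyclase of projection neurons, averaged 1739 ± 130 CPM in cKO and 1975 ± 138 CPM in WT striatum (SD, n = 3 each; log2 fold change -0.19, adjusted p = 0.749). Gnal, the G protein alpha subunit through which D1 and adenosine receptors act and whose human gene is mutated in another dystonia, averaged 1282 ± 62.2 CPM in cKO and 1375 ± 85.7 CPM in WT striatum (-0.10). Th, the tyrosine hydroxylase gene of dopamine cells, had a log2 fold change of 0.07. In the same libraries 4 of 9 myelin genes (Cldn11, Ermn, Mal and Mobp) fell in cKO by edgeR, and 9 of 9 by DESeq2 (median -0.76), and the summed myelin CPM was 5004 to 6209 in cKO striatum, against 7843 to 9569 in WT striatum. Striatal interneuron markers summed to 487 to 517 CPM in cKO and 407 to 473 CPM in WT striatum, cortical excitatory markers (8 of 9 in the tables, none at 0) to 47.8 to 59.8 CPM in cKO and 43.6 to 51.4 CPM in WT striatum, and ependymal and choroid plexus markers to 58.9 to 206 CPM in cKO and 41.2 to 49.4 CPM in WT striatum. Of 6 astrocyte markers edgeR called 0 (2 at an unadjusted p under 0.05) and DESeq2 called 2, Aqp4 and Gfap, with log2 fold changes of 0.56 and 1.58 by edgeR, and the list summed to 5454 to 5762 CPM in cKO and 5004 to 6068 CPM in WT striatum. The Purkinje cell list, which shares Itpr1 with the other projection neuron genes, summed to 2201 to 2475 CPM in cKO striatum. In WT striatum it summed to 2593 to 2789 CPM, without overlap. Of its 4 genes tested, edgeR and DESeq2 called 0, and 2 had an unadjusted p under 0.05 with each tool. The myelin sums, lower in cKO, did not overlap between genotypes either. Nor did the striatal interneuron sums and the ependymal and choroid plexus sums, both higher in cKO. What part the cells of these lists had in the members' levels was not tested.

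In cerebellum, where 28 of the 36 members had enough counts to be tested, Cnr1 and Gprin3 fell in cKO and no member rose (2 of 28; edgeR's quasi-likelihood test, Benjamini-Hochberg adjusted p under 0.05). Of all 14775 genes tested there, 7.59% were called, 4.96% lower and 2.63% higher in cKO, so the members' share was close to that of all genes. At an unadjusted p under 0.05 there were 5 members (Arpp21, Cnr1, Gprin3, Oprd1 and Penk), against 22.5% of all genes. The same 2 members were the ones without overlap, both lower, against 9.35% of all genes lower and 5.06% higher without overlap. The members' median log2 fold change was -0.08, against 0.00 for all genes. It was -0.030 without WT cerebellum replicate 2 and -0.14 without cKO cerebellum replicate 3. The members not tested were Drd1a, Drd2, Drd3, Pdyn, Gpr6, Isl1, Six3 and Oprm1.

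Cnr1, which in cerebellum is carried mainly by granule cell axons (chr4:33924593-33948831, plus strand), had 537.5, 584.5, 584.9 and 566 CPM in cKO libraries, against 698, 585.2, 668 and 662 CPM in WT libraries. The highest cKO and the lowest WT library, WT replicate 2, differed by less than 1 CPM, and the other WT libraries stood well above all cKO libraries. The log2 fold change was -0.19 (SE 0.0515, interval -0.30 to -0.08, adjusted p = 0.0342 by edgeR). Gprin3 (chr6:59347226-59426294, minus strand) had 6.76, 7.11, 6.74 and 7.06 CPM in cKO cerebellum, against 13.2, 9.19, 9.44 and 7.71 CPM in WT cerebellum. The cKO libraries were nearly equal, and WT replicate 1 was the highest (log2 fold change -0.49, SE 0.133, interval -0.78 to -0.21, adjusted p = 0.0384 by edgeR). Neither call held in all of the 8 fits that each leave out 1 cerebellar library. The adjusted p of Cnr1 ran from 0.00320 to 0.115 and that of Gprin3 from 0.00618 to 0.0976 by edgeR. Both log2 fold changes stayed negative. Each of these fits has 1 library fewer, and they called 739 to 1165 of all genes, against 1121 with all 8 libraries. Without WT replicate 1, WT replicate 3, cKO replicate 1, cKO replicate 2 or cKO replicate 4, neither was called. With all 14 libraries in 1 model neither passed either (adjusted p = 0.830 for Cnr1 and 0.133 for Gprin3).

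THAP1 from human cells binds sites with the core TNNGGGCA, so the letters were searched on both strands in the promoters. They were found in 6 of the 30 members with a promoter (20%, Rgs9, Rasd2, Gng7, Oprd1, Actn2 and Gprin3), against 11.7% of 27025 promoters. Because Gprin3 and Cnr1 were the members that fell, their promoters are shown, in capitals the core where present. Gprin3 (chr6:59426307-59426556, minus strand) holds 1 copy, read on the other strand as TGCCCGCA, and the Cnr1 window (chr4:33924014-33924263, plus strand, 1 of 3 listed starts) does not. A match is letters in a window, and binding was not measured.
Gprin3: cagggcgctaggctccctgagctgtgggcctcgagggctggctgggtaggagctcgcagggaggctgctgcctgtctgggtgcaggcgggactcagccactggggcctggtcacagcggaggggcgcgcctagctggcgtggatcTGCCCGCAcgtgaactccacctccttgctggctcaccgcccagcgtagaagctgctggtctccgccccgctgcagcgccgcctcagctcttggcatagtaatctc
Cnr1: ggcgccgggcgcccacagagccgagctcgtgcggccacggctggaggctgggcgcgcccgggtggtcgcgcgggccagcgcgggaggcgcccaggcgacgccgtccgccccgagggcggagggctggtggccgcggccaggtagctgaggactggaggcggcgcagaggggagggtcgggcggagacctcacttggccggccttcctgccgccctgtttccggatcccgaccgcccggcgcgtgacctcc

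The next members by p in cerebellum were Arpp21 and Penk. Arpp21 had 80.1, 81.9, 87.8 and 85.9 CPM in cKO cerebellum, against 95.8, 87.5, 97.5 and 91.8 CPM in WT cerebellum. It overlapped only through cKO replicate 3 and WT replicate 2, and at a log2 fold change of -0.14 ± 0.0411 SE its adjusted p was 0.0532 by edgeR and 0.0496 by DESeq2. Penk had 112, 108, 93.5 and 105 CPM in cKO cerebellum, against 92.4, 105, 95.7 and 93.1 CPM in WT cerebellum. It overlapped, and did not pass by edgeR (log2 fold change 0.13 ± 0.0570 SE, adjusted p = 0.203).

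Of the other tested members, Oprd1 was low, with 2.02, 1.40, 1.85 and 1.63 CPM in cKO cerebellum, against 0.765, 1.57, 1.09 and 1.502 CPM in WT cerebellum (log2 fold change 0.49, adjusted p = 0.208 by edgeR). Rgs9 had 12.2, 11.1, 11.01 and 10.6 CPM in cKO cerebellum, against 11.7, 13.9, 13.9 and 11.6 CPM in WT cerebellum, overlapping at a log2 fold change of -0.17. Ppp1r1b had 143, 130, 134 and 130 CPM in cKO cerebellum, against 131, 160, 122 and 128 CPM in WT cerebellum (log2 fold change 0.00). These groups overlapped as well. Pde10a had 86.9, 119, 133 and 88.1 CPM in cKO cerebellum, against 101, 122, 141 and 108 CPM in WT cerebellum (log2 fold change -0.13). Adora2a had 1.597, 1.79, 1.62 and 1.90 CPM in cKO cerebellum, against 1.67, 1.97, 2.00 and 2.33 CPM in WT cerebellum (-0.20). Both overlapped between genotypes.

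The transcription factors overlapped in cerebellum too. Foxp1 had 30.0, 28.9, 27.3 and 31.6 CPM in cKO cerebellum, against 33.3, 32.0, 27.3 and 30.2 CPM in WT cerebellum (log2 fold change -0.05). Foxp2 had 14.2, 15.1, 14.7 and 15.03 CPM in cKO cerebellum, against 12.5, 17.6, 13.9 and 12.7 CPM in WT cerebellum (0.08). For Foxp2 all cKO libraries were inside the WT range. Rarb had 10.3, 9.78, 11.8 and 8.38 CPM in cKO cerebellum, against 12.2, 11.4, 11.3 and 8.18 CPM in WT cerebellum (-0.08). Bcl11b had 1.503, 1.40, 1.31 and 2.21 CPM in cKO cerebellum, against 1.67, 3.73, 1.39 and 1.58 CPM in WT cerebellum (-0.34). WT replicate 2 was high for Bcl11b and Foxp2. Ebf1, the member with the larger cerebellar level, averaged 40.0 ± 2.76 CPM in cKO and 43.4 ± 2.57 CPM in WT cerebellum (SD, n = 4 each; log2 fold change -0.10). The other tested members lay between -0.62 for Tac1 and 0.18 for Gpr52.

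At low levels in cerebellum, WT replicate 2 was often the high library. Tac1 had 0.846, 0.873, 0.424 and 1.09 CPM in cKO cerebellum, against 0.670, 4.18, 0.218 and 0.198 CPM in WT cerebellum. Its log2 fold change of -0.62 was 1.22 without that library (SE 0.436, adjusted p = 0.110 by edgeR). Drd2 had 0.376, 0.349, 0.308 and 0.373 CPM in cKO cerebellum, against 0.478, 1.72, 0.348 and 0.474 CPM in WT cerebellum, and Six3 0.0940, 0.0873, 0.0385 and 0 CPM in cKO cerebellum, against 0.0957, 1.43, 0.218 and 0.0395 CPM in WT cerebellum. For both genes WT replicate 2 was far above the rest. Drd1a had 0.235, 0.480, 0.231 and 0.339 CPM in cKO cerebellum, against 0.383, 0.491, 0.305 and 0.514 CPM in WT cerebellum, and Pdyn 0.0940, 0.131, 0.0385 and 0 CPM in cKO cerebellum, against 0.0957, 0.344, 0 and 0.0395 CPM in WT cerebellum. These overlapped. Drd2, Six3, Drd1a and Pdyn had too few counts there for the test. Ptpn5, with 25.3, 24.5, 21.0 and 20.4 CPM in cKO cerebellum, against 17.7, 28.5, 19.2 and 18.6 CPM in WT cerebellum, overlapped with all libraries (log2 fold change 0.13). Without WT replicate 2 it was 0.31 with an adjusted p of 0.0265 by edgeR.

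**Figure D5:**
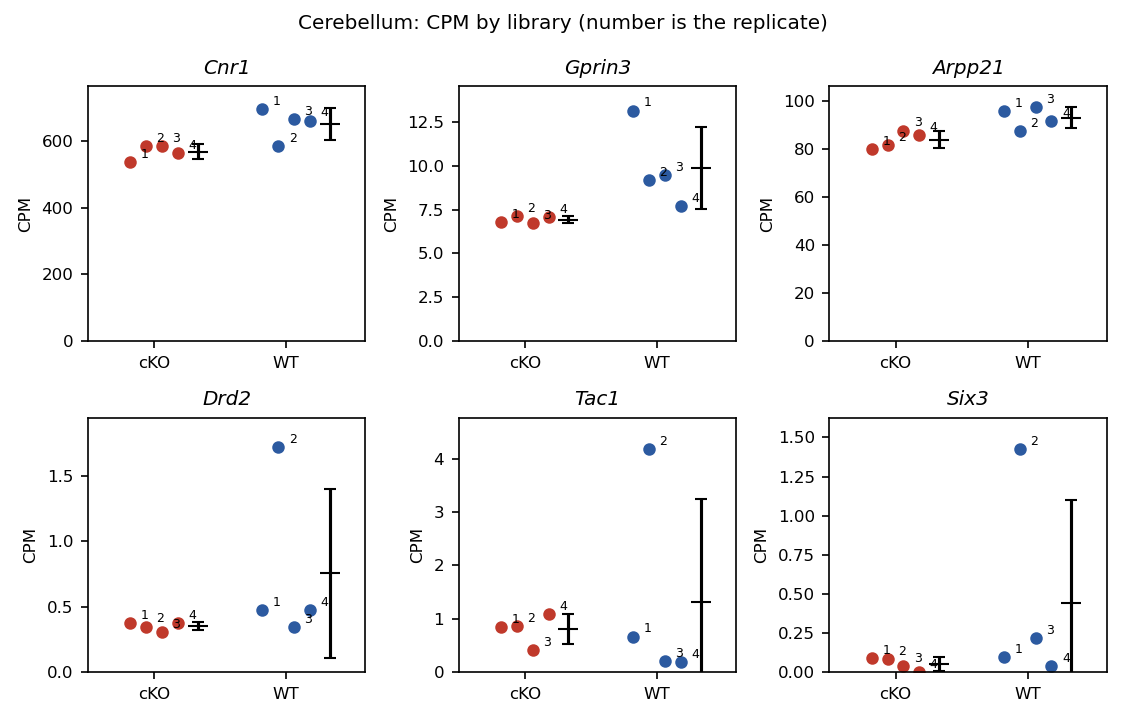
CPM of 6 members in each cerebellar library, cKO left and WT right, with replicate numbers, means and SDs (bars, n = 4, cut at 0). Top, Cnr1, Gprin3 and Arpp21, lower on average in cKO; bottom, Drd2, Tac1 and Six3, where WT replicate 2 lies far above the other 7 libraries.

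In the lists around the members, 0 of 32 dopamine and cyclic AMP partners tested in cerebellum were called by edgeR (5 at an unadjusted p under 0.05) and 1 by DESeq2, Prkar1b, a regulatory subunit of protein kinase A. Of 20 other projection neuron genes tested, 3 were called by edgeR, where 7.59% of all genes were. DESeq2, which called 8.47% of all genes, called 4 of the 20 and added Ryr1, a calcium release channel gene. Dgkb, a diacylglycerol kinase, and Itpr1, the IP3 receptor gene that is also a Purkinje cell marker, rose (0.23 and 0.15), and Sez6, a membrane protein gene, fell (-0.20; edgeR, adjusted p = 0.00841, 0.00834 and 0.00454). Gnal had a log2 fold change of 0.105 (adjusted p = 0.105) and Adcy5 of -0.12 (adjusted p = 0.418), while Th had -0.01. Granule cell markers, none at 0, summed to 4879 to 5218 CPM in cKO and 5126 to 5844 CPM in WT cerebellum, and Purkinje cell markers to 9759 to 10610 CPM in cKO and 9158 to 9656 CPM in WT cerebellum. Of 7 granule cell markers tested, edgeR called 1, Fat2, lower, and DESeq2 called 3, Cbln3, Fat2 and Zic1. Their median log2 fold change was -0.14 (2 positive, 5 negative). With edgeR 5 of the 7 had an unadjusted p under 0.05, against 22.5% of all genes. Myelin genes summed to 4233 to 4768 CPM in cKO and 4894 to 5418 CPM in WT cerebellum, with 6 of 9 called lower. Astrocyte markers overlapped in sum, at 3852 to 4338 CPM in cKO and 3852 to 4046 CPM in WT cerebellum, with Aqp4, Gfap and Gja1 called higher and Slc1a3 lower (4 of 6). The sums of the other lists that did not overlap were 57.9 to 63.7 CPM in cKO and 50.3 to 54.1 CPM in WT cerebellum for oligodendrocyte precursor markers, 631 to 662 CPM in cKO and 667 to 719 CPM in WT cerebellum for cortical excitatory markers, and 668 to 749 CPM in cKO and 761 to 848 CPM in WT cerebellum for pallidal, septal and thalamic markers. The cortical and the pallidal, septal and thalamic lists summed to more in WT cerebellum than in WT striatum, which had 43.6 to 51.4 and 33.1 to 51.7 CPM. The latter list shares Zic1 with the granule cell list. Their cerebellar sums are therefore not read as the cell types that name them. What part the cells of any of these lists had in the values of Cnr1 and Gprin3 was not tested.

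The genotype difference in striatum was set against that in cerebellum in 1 model of all 14 libraries. With edgeR or with DESeq2, 0 of 36 members were called, where edgeR called 0.390% and DESeq2 1.51% of 15401 genes. At an unadjusted p under 0.05 there were 4 members with edgeR (Actn2, Gprin3, Oprd1 and Six3), against 11.6% of all genes. With DESeq2 there were 5, and the share of all genes at that threshold was not counted. Of the 36, 28 had been tested in both tissues, and 3 of the 4 are among these. The other 8, Six3 included, entered this model through their striatal counts, with few cerebellar counts and SEs of up to 1.40, so little can be read from them. Oprd1 had a difference of -0.70 (striatal minus cerebellar log2 fold change, SE 0.275, adjusted p = 0.340) and Gprin3 of 0.50 (SE 0.210, adjusted p = 0.383). Cnr1 had 0.36 (SE 0.330, adjusted p = 0.709), so its fall in cerebellum was not shown to differ from its striatal value.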

How the data were processed

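For each of 14 samples the authors deposited whole-number read counts by gene symbol. The build was mm10, and the tools HTSeq 0.6.1p1, STAR, DESeq2 and cutadapt 1.13 are listed, with no roles, per the submitters' processing notes. The sources used here give neither the gene annotation nor the strand setting, so counts of Ppp1r1b, Penk, Foxp1, Rarb, Arpp21, Six3, Rasgrp2, Oprm1 and Thap1, whose exons overlap another gene, are uncertain.

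Genes were kept by filterByExpr (minimum count 10, minimum total 15), scaled by TMM and compared with edgeR 4.0.16 (R 4.3.3), using its robust quasi-likelihood test. Genotypes were fitted within each tissue, and the interaction and the tissue contrast in 1 model of all 14 samples. P-values were Benjamini-Hochberg adjusted over all genes tested and called under 0.05. The SE is the log2 fold change over the square root of F, and the interval is at 95%. Pathway scores average log2 CPM (prior count 2). The model was tested on simulated data. Printed CPM share 1 set of factors over all samples.

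The members, pathways and gene lists were chosen with earlier results of these data known. Values in every library are given for members called, for 6 pathway genes, for 7 signalling and transcription genes and for the 4 smallest p in each tissue; Tac1, Drd2, Six3 and Ptpn5 in cerebellum were added after their values were seen. Coordinates and exon lengths (the union of exons) come from GENCODE on GRCm38, which is mm10; 89.8% of symbols matched directly, 8.22% by synonym and 1.99% not at all. Promoters are RefSeq's (GRCm38.p6). The least different pair of replicates differed by 6.18 times the sampling noise (chi-square per degree of freedom), so none were treated as the same library. Depth limits members with few counts; the interval of the Isl1 ratio covers counting error only. Alternatives were DESeq2 1.42.0, its size factors, 2 filters, a replicate block, 1 model of all samples, and leaving out each library; a fit without the per-library exon length trend was chosen after seeing the data.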

Additional observations from a re-analysis of the deposited data

Results flagged for a closer look

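Of 72 cerebellar groups of 4 libraries (each of the 36 members in each genotype), 9 held a library far from the other 3 by Dixon's ratio. The ratio flags about 1 in 20 groups of normally spread, independent values. The members share libraries and some have almost no counts, so the 9 cannot be set against that rate. WT replicate 2 accounts for 6 of the 9. It had 1.72 CPM of Drd2, 4.18 CPM of Tac1, 3.73 CPM of Bcl11b, 1.43 CPM of Six3, 28.5 CPM of Ptpn5 and 0.0491 CPM of Isl1, each the highest of its group. In cKO cerebellum the flagged values were 0.0470 CPM of Gpr6 in replicate 1, 0.742 CPM of Actn2 in replicate 2 and 0.0339 CPM of Isl1 in replicate 4. The flagged values of Gpr6 and Isl1 are 1 count each, with 0 in the other libraries of the group, which the ratio always flags. Striatal groups of 3 were not tested.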

How the results depend on the processing

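In striatum 0 of 36 members were called under every alternative run, and in the interaction test likewise. At an unadjusted p under 0.05 the striatal count ran from 0 to 2 members over the alternatives. The tissue contrast called all 36 throughout. The cerebellar median over members was -0.13 with no filter and -0.15 with all 14 samples, against -0.08. In cerebellum the number of members called was 2, and 0 with all 14 samples in 1 model, 2 or 3 under the other alternatives, and 0 to 3 over the fits that each leave out 1 library. Cnr1 ran from -0.24 to -0.16 and lost its call in 6 of those 8 fits, and Gprin3 from -0.60 to -0.33 and in 7 of 8. Arpp21 passed with no low-count filter (adjusted p = 0.0455) and with DESeq2 (0.0496). Without WT cerebellum replicate 2, Arpp21, Cnr1 and Ptpn5 were called, and without cKO cerebellum replicate 3, Arpp21, Cnr1 and Penk (0.0302).

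Some log2 fold changes changed sign, most of them near 0 but also Tac1 and Bcl11b in cerebellum (-0.62 and -0.34 with all libraries) and Pde10a and Cnr1 in striatum (-0.18 and 0.16); the cause was not tested. Over the striatal fits leaving out 1 library they ran, for the members that changed sign, as Actn2 -0.035 to 0.21, Arpp19 -0.12 to 0.037, Arpp21 -0.058 to 0.052, Cnr1 -0.18 to 0.49, Drd1a -0.047 to 0.043, Foxp2 -0.12 to 0.0060, Gpr52 -0.24 to 0.086, Gprin3 -0.096 to 0.11, Oprk1 -0.13 to 0.24, Oprm1 -0.13 to 0.29, Pde10a -0.27 to 0.029, Pde1b -0.020 to 0.11, Penk -0.31 to 0.24, Ppp1r1b -0.15 to 0.23, Ptpn5 -0.038 to 0.13, Rasgrp2 -0.030 to 0.17 and Tac1 -0.087 to 0.30. The same ranges in cerebellum were Bcl11b -0.55 to 0.078, Gpr52 -0.0032 to 0.31, Ikzf1 -0.032 to 0.14, Meis2 -0.084 to 0.46, Oprk1 -0.13 to 0.11, Pde1b -0.060 to 0.11, Ppp1r1b -0.040 to 0.095, Rarb -0.20 to 0.0024 and Tac1 -1.01 to 1.22. With all 14 samples in 1 model, Oprk1 was 0.00088 in striatum, and in cerebellum Ppp1r1b was -0.0088 and Pde1b -0.0015. With the length trend removed, striatal values were Ppp1r1b -0.0015, Foxp2 0.078, Arpp21 0.11, Meis2 0.055, Chrm4 -0.10, Oprk1 0.063 and Gprin3 0.061.

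Thap1 in striatum passed with no low-count filter (-1.36, adjusted p = 0.0172), DESeq2 (-1.37, 2.91e-05), all 14 samples (-1.36, 0.000470) and the length trend removed (-1.44, 0.0202), and ran from -1.66 to -1.15 with 1 library left out (0.0248 to 0.404). In cerebellum Thap1 did not pass with DESeq2's size factors (-0.34, 0.0503), genes of at least 1 CPM (-0.34, 0.0516), DESeq2 (-0.34, 0.0569), all 14 samples (-0.35, 0.353) or the length trend removed (-0.34, 0.0527), and ran from -0.40 to -0.27 (0.0224 to 0.170).

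Same-numbered cKO and WT libraries deviated together with correlations of 0.137, 0.0892 and 0.0590 in striatum, each library best with its own number, and of 0.336, 0.161, 0.0542 and 0.205 in cerebellum, where no same-numbered pair was best with each other. Not every correlation was over 0.1 in either tissue, so the numbers were not taken to pair the samples; the striatal match is a hint from the data. With the replicate block, Penk was 0.031 and Oprk1 0.0059 in striatum, and in cerebellum Cnr1 was -0.19 (adjusted p = 0.0553) and Arpp21 and Gprin3 were called.

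Of all genes, 54 were called in striatum, and 81 with no filter, 153 with DESeq2, 15 with the block, 376 with all 14 samples, 89 with the length trend removed and 3 to 122 with 1 library left out. In cerebellum 1121 were called, 251 with all 14 samples and 739 to 1165 with 1 left out. The interaction gave 60, 232 with DESeq2, 13 with the block and 17 to 193 with 1 left out. The direct minus indirect score difference in striatum was 0.12 to 0.21 with 1 library left out, 0.24 with 3 members a pathway and 0.14 with Foxp2 added; in cerebellum it was 0.11 to 0.31 with 1 left out.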
